A study of Mus musculus with 8 samples.

Results

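The high-affinity IgE receptor and the receptors for IgG were followed in cultured mouse mast cells in which Mettl3 had been targeted. Mettl3 encodes the methyltransferase that places N6-methyladenosine (m6A) marks on mRNA. The genes described are Fcer1a, Ms4a2 and Fcer1g, which encode the alpha, beta and gamma chains of the IgE receptor, and Fcgr2b, Fcgr3 and Fcgr4, which encode receptors for IgG. They were chosen by gene symbol, after the Ensembl IDs of the count tables had been named, and make up 6 of 56748 gene IDs. Of the 6 genes, 5 passed the filter on low counts and were tested among 14942 genes, while Fcgr4 did not pass it.

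On mast cells the alpha chain of the IgE receptor binds IgE outside the cell, while the beta and gamma chains carry the signal inside through tyrosine motifs called ITAMs. Antigen that links several receptors leads the kinases Lyn and Syk to start a cascade that ends in degranulation and cytokine production. The gamma chain is shared, because the activating IgG receptors encoded by Fcgr3 and Fcgr4 also need it to reach the surface and to signal. Fcgr2b encodes the inhibitory IgG receptor, which carries an opposing motif (ITIM) and recruits the lipid phosphatase Inpp5d, and its engagement together with the IgE receptor dampens the response.

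RNA-seq was performed on bone marrow-derived mast cells (BMMCs), grown in IL-3 from the bone marrow of C57BL/6 mice aged 6 to 8 weeks until surface FcεRIα and c-Kit marked nearly all cells, so the protein of 1 of the 6 genes was part of the criterion for the culture. The Mettl3-RNP group was transfected with complexes of Cas9 and guide RNAs against Mettl3 (labelled Mettl3 KO), the Pulsed group was mock transfected and received no Cas9, and each group held 4 libraries with the replicate numbers 1 to 4. The Mettl3-RNP cells were a mixed population of edited and unedited cells, not a clone. The study describes the cells of both groups as resting and unstimulated, so the values do not cover cells activated with IgE and antigen. The series text names 4 mice for the 8 samples, and libraries with the same number were compared as pairs.

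The libraries held 32643260 to 45324826 counts. Levels are in CPM (counts per 1000000) after scaling of library sizes by TMM, a trimmed mean of log ratios. Expression of the targeted gene was 12.3, 9.17, 4.88 and 9.19 CPM in Mettl3-RNP libraries 1 to 4 and 25.9, 24.5, 11.1 and 26.5 CPM in Pulsed libraries 1 to 4. Mettl3 was lower in 4 of 4 pairs, with a log2 fold change of -1.304 (SE 0.109, edgeR adjusted p = 0.00543), although Pulsed 3 lay below Mettl3-RNP 1. In the same fit 308 of 14942 genes met an adjusted p limit of 0.05 together with a fold change of 1.5 or more (2.06%), of which 186 had the higher and 122 the lower value in Mettl3-RNP, and 559 passed the adjusted p alone (3.74%). These backgrounds rest on the pairing and on replicate 2, since 26 genes met both limits without replicate 2 and 0 without the replicate block, where 579 had an unadjusted edgeR p under 0.05 and the adjusted p of Mettl3 was 0.744.

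The guide sequences listed by the study against Mettl3 are shown because the comparison rests on them. They are printed 5′ to 3′ with the adjoining PAM of the genome in capitals (GRCm39), and which of them were used for these libraries is not given in the sources used here.
crRNA_Mettl3_1: cacgggactatcactacggaAGG
crRNA_Mettl3_2-HDR: ggacacgtggagctctatccAGG
crRNA_Mettl3_3-HDR: gatggggtaaccaacaatcgAGG
The first matched a coding exon at chr14:52537803-52537822 on the plus strand, the second a coding exon at chr14:52542420-52542439 on the minus strand, and the third an exon at chr14:52542216-52542235 on the plus strand. Within the 6 receptor genes and 2000 bases on either side, the closest site of each guide before an NGG carried 7 to 10 mismatches over the 20 bases.

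The 3 chains of the IgE receptor are encoded at separate places. Fcer1a (ENSMUSG00000005339) lies at chr1:173048851-173054781 on the minus strand beside the olfactory receptor genes Or10j3b and Or10j2. Fcer1g (ENSMUSG00000058715) lies at chr1:171057141-171062219 on the minus strand. Ms4a2 (ENSMUSG00000024680) lies at chr19:11592887-11601083 on the minus strand between Ms4a6d and Ms4a3. The IgG receptor genes form a cluster on chromosome 1, with Fcgr2b (ENSMUSG00000026656) at chr1:170786186-170804177 on the minus strand, Fcgr4 (ENSMUSG00000059089) at chr1:170846466-170857330 on the plus strand, and Fcgr3 (ENSMUSG00000059498) at chr1:170878738-170893549 on the minus strand. All coordinates are on GRCm39.

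The promoters of Fcer1a and Ms4a2 are shown because the alpha and beta chains are the ones with the narrowest expression among blood cells, and GATA factors are known to act on both genes. The windows are the 150 bases before the RefSeq start, printed 5′ to 3′ in the direction of the gene, with capitals marking matches to the GATA words AGATAA or AGATAG or TGATAA or TGATAG on either strand.
Fcer1a promoter, chr1:173054797-173054946: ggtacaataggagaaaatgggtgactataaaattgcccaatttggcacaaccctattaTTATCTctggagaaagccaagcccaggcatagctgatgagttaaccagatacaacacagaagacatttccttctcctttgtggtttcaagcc
Ms4a2 promoter, chr19:11601084-11601233: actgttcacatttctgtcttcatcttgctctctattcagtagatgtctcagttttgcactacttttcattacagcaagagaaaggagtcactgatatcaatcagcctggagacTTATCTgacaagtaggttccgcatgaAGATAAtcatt
Fcer1a had 1 match in the 250 bases before its start, Ms4a2 had 3, Fcgr4 had 1, and Fcer1g, Fcgr2b and Fcgr3 had 0. The windows differ in kind. Of the 150 bases before the start, 150 lay in annotated exons of the gene itself for Fcer1g and Fcgr3. That number was 87 for Fcgr2b, 29 for Fcgr4 and 0 for Fcer1a and Ms4a2. Fcgr3 had 2 starts in the RefSeq table, and the first was used. Of 27025 promoters of the RefSeq table (GRCm38.p6), 27.1% held at least 1 match in a window of that length. The ETS words AGGAAG and CGGAAG, searched on both strands, were found 2 times for Fcer1g and 1 time each for Fcgr3 and Fcgr4, and 39% of all promoters held at least 1. The E-box words CATGTG and CACGTG, known from MITF sites, matched 1 time before Fcer1a and before none of the other 5 genes, against 17.6% of promoters. A match is a description of the letters and not of binding.

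Fcgr2b and Fcgr3 encode related extracellular domains, and part of their coding sequence is identical. The longest stretch is shown because a read lying wholly within it could not be told apart by its own sequence. The study sequenced paired reads, so a mate outside the stretch could still separate the genes. It spans 113 bases, at chr1:170794129-170794241 in Fcgr2b and at chr1:170881622-170881734 in Fcgr3, both on the minus strand.
Shared coding stretch of Fcgr2b and Fcgr3: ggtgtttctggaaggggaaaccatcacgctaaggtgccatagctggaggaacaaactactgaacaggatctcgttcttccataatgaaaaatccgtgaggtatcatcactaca
Of the 50-base words in its annotated transcripts, Fcgr2b shared 2.80% with Fcgr3, and Fcgr3 shared 4.81% with Fcgr2b. With any other gene, 9.23% of the words of Fcgr2b, 7.33% of Fcgr3 and 2.06% of Ms4a2 were shared, and 0% of Fcer1a, Fcer1g and Fcgr4. Gm38204, a long non-coding RNA gene on the opposite strand, covers 355 exon bases of Fcgr2b (6.06%). How the counting treated strand and reads with several matches is not given in the sources used here. These shares therefore mark where the Fcgr2b and Fcgr3 counts could be uncertain, and not how many reads were affected.

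The level of each transcript was compared per length, as RPKM (reads per kilobase of exon per 1000000 counts). In Pulsed libraries, Fcer1a stood at 2604 ± 164 RPKM (SD, n = 4), Ms4a2 at 571 ± 139, Fcer1g at 489 ± 66.2, Fcgr3 at 87.3 ± 7.47, Fcgr2b at 13.6 ± 6.59 and Fcgr4 at 0.0406 ± 0.0318. Among 14862 genes ranked by RPKM, Fcer1a ranked between 6 and 10 in the 8 libraries, Ms4a2 between 28 and 87, Fcer1g between 45 and 58, Fcgr3 between 254 and 388, and Fcgr2b between 1338 and 3739. The alpha chain transcript was therefore among the most abundant of the cell, and the inhibitory receptor was the lowest of the 5 tested transcripts. In the Pulsed libraries, the only neighbours in this order with overlapping ranges were Ms4a2 and Fcer1g, whose RPKM ratio ran from 0.647 to 1.55 and was above 1 in 3 of 4 libraries. Fcgr3 exceeded Fcgr2b in each Pulsed library, by 3.38 to 9.59 times on the RPKM scale. The 6 genes together held 0.394 to 0.585% of the counts of a library.

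**Figure D1:**
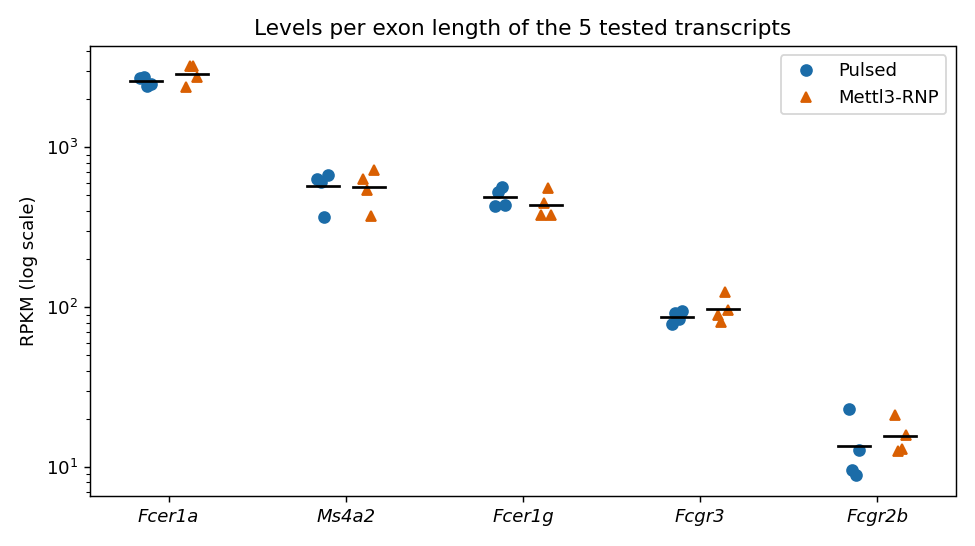
RPKM (reads per kilobase of exon per 1000000 counts, log axis) of the 5 tested Fc receptor transcripts. Each point is a library (circles Pulsed, triangles Mettl3-RNP) and the short lines are group means. Fcer1a stands highest and Fcgr2b lowest in both groups, and in the Pulsed group only Ms4a2 and Fcer1g overlap among neighbours. Fcgr4, at 0.0406 RPKM in Pulsed libraries, is left out.

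Whether Mettl3 targeting changed the receptor transcripts was asked first for the chains of the IgE receptor. Fcer1a, the IgE-binding alpha chain, was measured at 2390, 3205, 3207 and 2750 CPM in Mettl3-RNP libraries 1 to 4 and at 2714, 2762, 2430 and 2490 CPM in Pulsed libraries 1 to 4. The 3 highest values were Mettl3-RNP 2 and 3 and Pulsed 2, the lowest was Mettl3-RNP 1, and the groups overlapped. Fcer1a was higher in 3 of 4 pairs, at 1.11 times the Pulsed level (95% interval 0.943 to 1.295, log2 fold change 0.14, SE 0.0990, edgeR adjusted p = 0.447).

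Ms4a2, the beta chain that amplifies the signal, was measured at 1794, 1515, 1046 and 2028 CPM in Mettl3-RNP libraries 1 to 4 and at 1781, 1710, 1031 and 1900 CPM in Pulsed libraries 1 to 4. Both libraries numbered 3 were low, and the values of each pair lay close together, with pair differences of 0.01, -0.17, 0.02 and 0.09 on the log2 scale. The fitted level in Mettl3-RNP libraries was 0.991 times that in Pulsed libraries (95% interval 0.882 to 1.11, log2 fold change -0.01, SE 0.0730, edgeR adjusted p = 0.943). The sign of so small a value turned with the scaling, since library size without TMM gave 0.02 on the log2 scale.

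Fcer1g, the shared gamma chain, was measured at 437, 519, 642 and 435 CPM in Mettl3-RNP libraries 1 to 4 and at 501, 606, 657 and 506 CPM in Pulsed libraries 1 to 4. Each Mettl3-RNP library lay below its Pulsed partner, by the least in pair 3, but the ranges of the groups overlapped. The fitted level was 0.890 times that in Pulsed libraries (95% interval 0.797 to 0.994, log2 fold change -0.17, SE 0.0689). The unadjusted edgeR p was 0.0416 and the adjusted p was 0.204, so Fcer1g did not pass the test over all genes.

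The IgG receptors were examined in the same way. Fcgr3, the activating receptor that signals through the gamma chain, was measured at 277, 251, 387 and 297 CPM in Mettl3-RNP libraries 1 to 4 and at 242, 286, 260 and 292 CPM in Pulsed libraries 1 to 4. Mettl3-RNP 3 stood above the other 7 libraries. Fcgr3 was higher in 3 of 4 pairs, at 1.11 times the Pulsed level (95% interval 0.920 to 1.34, log2 fold change 0.15, SE 0.118, edgeR adjusted p = 0.506). Pair 3 set much of this value, and without it the log2 fold change was 0.0094.

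Fcgr2b, the inhibitory receptor, was measured at 123, 73.7, 76.0 and 93.1 CPM in Mettl3-RNP libraries 1 to 4 and at 136, 56.4, 52.0 and 74.9 CPM in Pulsed libraries 1 to 4. Both libraries numbered 1 were high, and Fcgr2b was lower in Mettl3-RNP in pair 1 and higher in the other 3 pairs. The fitted level was 1.21 times that in Pulsed libraries (95% interval 1.01 to 1.44, log2 fold change 0.28, SE 0.111). The unadjusted edgeR p was 0.0380 and the adjusted p was 0.193, so Fcgr2b also did not pass the test over all genes.

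Fcgr4, an activating receptor known mainly from monocytes, macrophages and neutrophils, was close to the limit of detection. Its counts were 0, 15, 6 and 0 in Mettl3-RNP libraries 1 to 4 and 2, 2, 4 and 0 in Pulsed libraries 1 to 4. The count of 15 in Mettl3-RNP 2 corresponds to 0.363 CPM of total counts (exact Poisson 95% interval 0.203 to 0.598, counting error only). The limit that a count of 0 allows (3 counts) was 0.0662 to 0.0919 CPM over the libraries. Group totals were 21 and 8 counts in Mettl3-RNP and Pulsed libraries, and the filter left Fcgr4 out of the test.

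**Figure D2:**
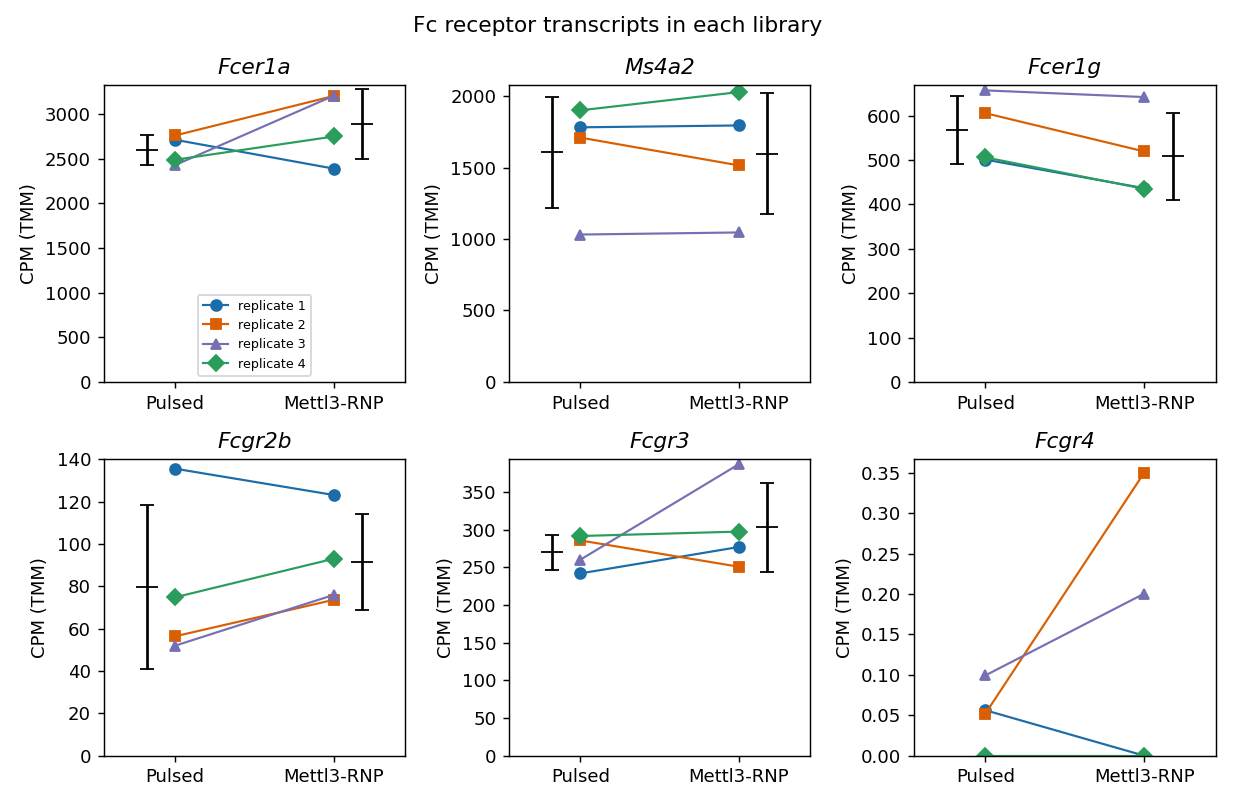
CPM (TMM library sizes, linear axes from 0) of the 6 Fc receptor transcripts in each library, with lines joining the Pulsed and Mettl3-RNP libraries of a replicate number. Black marks are group means with SD (n = 4) for the 5 tested genes. Libraries of replicate 3 are low for Ms4a2 and high for Fcer1g in both groups, and Fcer1g lies lower in Mettl3-RNP in each pair.

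Of the 5 tested receptor genes, 0 passed an adjusted p of 0.05 or less, against 3.74% of the tested genes, and thus 0 passed with the fold limit, against 2.06%. In edgeR, 2 of the 5 tested genes (Fcer1g and Fcgr2b) had an unadjusted p under 0.05, against 22.5% of all tested genes. limma-voom and the DESeq2 Wald test also gave 0 genes past the adjusted limit and 2 at an unadjusted p under 0.05. The unadjusted count was 0 without the replicate block, without replicate 2 and without replicate 4, and 1 or 2 in the rest of the alternatives. Fcer1g was the 1 gene of the 5 with all pairs in 1 direction, against 31.7% of tested genes, and 0 of the 5 had groups that did not overlap, against 3.23%. With 5 genes, 1 gene more or fewer moves such a share widely, and nothing is read from the unadjusted count.

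The 95% intervals bound the size of change that these libraries leave possible. For each of the 5 tested genes the interval lay within a fold of 1.5 in either direction, with Fcgr2b reaching the highest upper bound, 0.53 on the log2 scale, and Fcer1g the lowest lower bound, -0.33. This held for 56.6% of all tested genes and for 92.2% of the 2461 genes at or above the mean CPM of the lowest tested receptor gene, Fcgr2b. Leaving out replicate 1 raised the upper bound of Fcgr2b to 0.64, past the fold limit. These are bulk values, in which fewer cells of a type and less RNA per cell cannot be told apart, and edited and unedited cells were measured together.

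**Figure D3:**
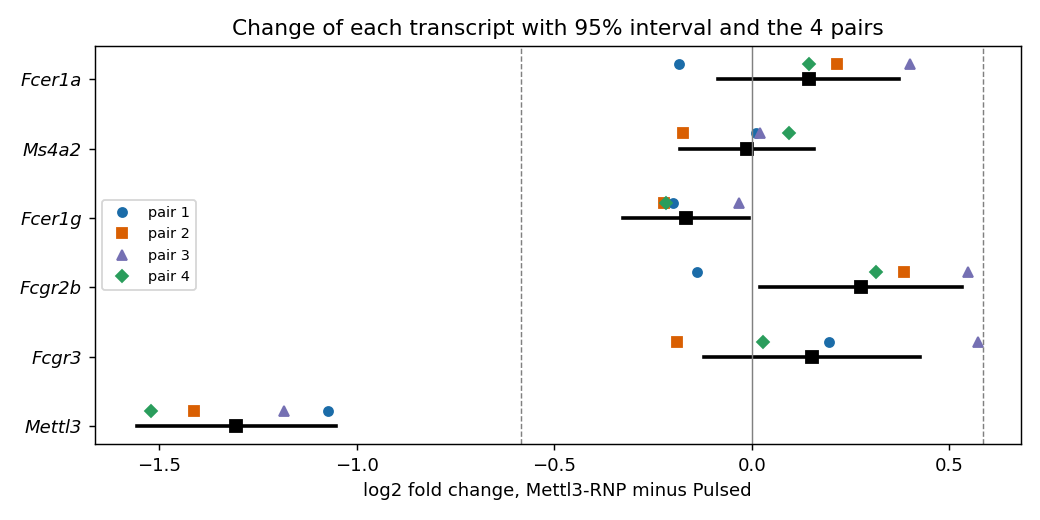
Log2 fold change (Mettl3-RNP minus Pulsed) of the 5 tested Fc receptor transcripts and of Mettl3, with the 95% interval of the edgeR fit as a black bar and the 4 pair differences as coloured points above it. Dashed lines mark a fold of 1.5. The 5 receptor intervals lie between the dashed lines, while the interval of Mettl3 runs from -1.56 to -1.05.

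Assembly of the receptors depends on the relative supply of their chains, so ratios of counts were compared within libraries, which needs no scaling. The signs of the 4 pair differences were flipped in an exact permutation test (two-sided), whose smallest possible p is 0.125, so no ratio could pass 0.05. The count ratio of Fcer1g to Fcer1a, gamma to alpha chain, ran from 0.185 to 0.270 in Pulsed and from 0.158 to 0.200 in Mettl3-RNP libraries. It was lower in 4 of 4 pairs, by a mean log2 difference of -0.31 (SE 0.100, exact permutation p = 0.125, 0.25 after adjustment over 4 ratios), with almost no difference in pair 1 (-0.02).

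The ratio of Fcer1g to Fcgr3, the gamma chain against an IgG receptor that needs it, ran from 1.73 to 2.53 in Pulsed and from 1.46 to 2.07 in Mettl3-RNP libraries. It was also lower in 4 of 4 pairs, by -0.32 on the log2 scale (SE 0.121, exact permutation p = 0.125, adjusted 0.25). Both ratios share the Fcer1g counts and are not independent of each other. The beta to alpha ratio, Ms4a2 to Fcer1a, was lower in 3 of 4 pairs, with a mean log2 difference of -0.16 (SE 0.141, exact permutation p = 0.375, adjusted 0.5). The inhibitory to activating ratio, Fcgr2b to Fcgr3, was higher in 2 and lower in 2 pairs, with a mean log2 difference of 0.12 (SE 0.196, exact permutation p = 0.75).

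**Figure D4:**
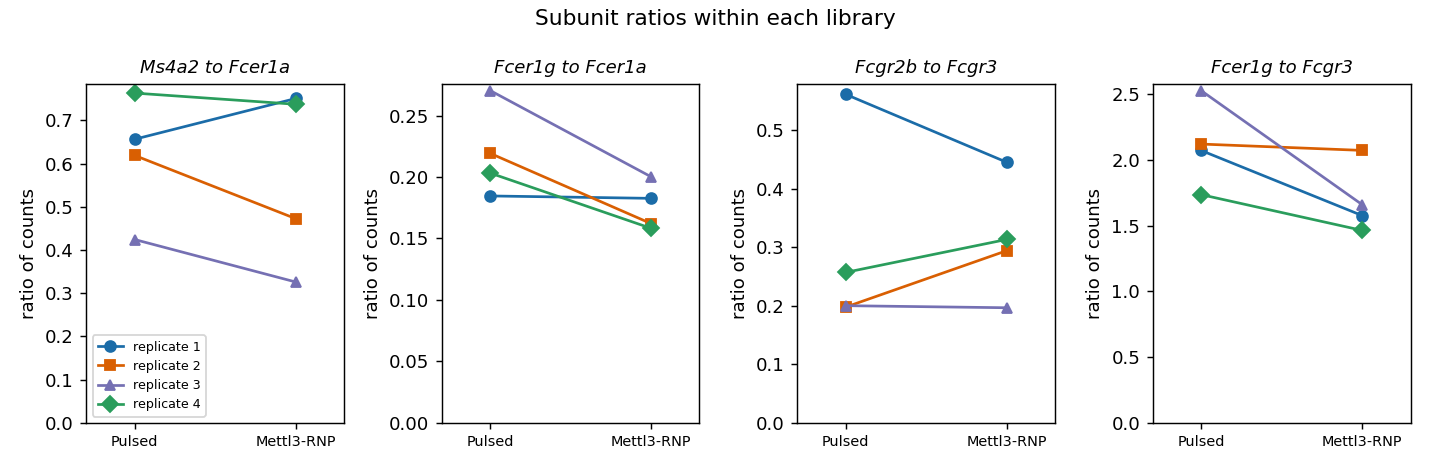
Ratios of counts (linear axes from 0) between pairs of Fc receptor transcripts within each library, with lines joining libraries of the same replicate number. The ratios of Fcer1g to Fcer1a and to Fcgr3 are lower in Mettl3-RNP in all 4 pairs, and the ratio of Fcgr2b to Fcgr3 is lower in 2 and higher in 2.

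For Ms4a2, Fcgr2b and Fcer1g, most of the variance lay between replicate numbers, which was not the case for Fcgr3 and Fcer1a. Of the variance of log2 CPM over the 8 libraries, 98.0% lay between replicate numbers for Ms4a2, 83.2% for Fcgr2b, 82.0% for Fcer1g, 34.6% for Fcgr3 and 31.7% for Fcer1a, beside a median of 82.6% over the 11984 genes that averaged 1 CPM or more. The share between groups was 21.7% for Fcer1a, 15.0% for Fcgr3, 14.8% for Fcer1g, 9.13% for Fcgr2b and 0.0304% for Ms4a2, with a median of 5.43% over those genes. Replicate numbers have 3 degrees of freedom and groups have 1, so the shares of a gene are read against those of all genes and not against each other. Fcer1a was the steadiest, with a highest library at 1.34 times the lowest and an SD larger than that of 8.87% of those genes. Fcgr2b was the most variable, with a highest library at 2.61 times the lowest and an SD larger than that of 66.9% of the genes.

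Replicate 3 stood apart from the others in several measures at once. Ms4a2 was lowest and Fcer1g highest in the libraries numbered 3 of both groups. Summed expression of 10 immediate early genes, which respond within minutes to stimulation or handling, was 23210 CPM in Mettl3-RNP 3 and 20436 CPM in Pulsed 3, against 173 to 5592 CPM in the other 6 libraries. Whether this bears on the receptor transcripts was not tested. Without replicate 3, the log2 fold change went from 0.14 to 0.06 for Fcer1a, from 0.15 to 0.0094 for Fcgr3 and from 0.28 to 0.18 for Fcgr2b, and was -0.21 for Fcer1g and -0.03 for Ms4a2.

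Across the 8 libraries, which share mice and replicate numbers, Ms4a2 and Fcer1g varied in opposite directions (Pearson r = -0.83), as did Fcer1g and Fcgr2b (r = -0.75), while the r of Fcer1a with the other 4 genes lay between -0.26 and 0.36. The transcripts most like each receptor gene in log2 CPM were then taken from 10737 protein-coding genes. For Ms4a2 these were Atp8b5, Taco1 and Cbx1 (r of 0.995, 0.994 and 0.994), and for Fcer1g they were Uxt, Ndufb11 and Tbl3 (0.988, 0.985 and 0.982). For Fcgr2b they were Abhd8, Nmrk1 and Lpcat1 (0.975, 0.973 and 0.970). Fcer1a was closest to Trp53rkb, Plpp2 and Alox5ap (0.940, 0.931 and 0.915), and Fcgr3 to Nif3l1, Frmd4b and Sfr1 (0.952, 0.926 and 0.890). With 8 libraries from 4 replicate numbers, high values of r are easily reached for genes that follow the replicate number, and they are given as a description.

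Since Mettl3 methylates adenosines in a sequence context, the transcripts were searched for GGACT, the most frequent form of the m6A consensus in mammals. The word was absent from every annotated transcript of Fcer1a (2 transcripts), Ms4a2 (6) and Fcer1g (7), and was present in 12 of 13 transcripts of Fcgr2b, 14 of 16 of Fcgr3 and 2 of 2 of Fcgr4. Of 12056 tested protein-coding genes, 95.4% held it in their longest transcript. Length bears on this share, and among genes within 10% of the same length GGACT was present in 67.3% for Fcer1a, 95.4% for Ms4a2 and 67.6% for Fcer1g. The sites in the longest transcripts of Fcgr2b and Fcgr3 are shown with 8 bases on either side and the word in capitals, with positions counted from the first base of the transcript.
Fcgr2b, bases 354 to 358: gagcaactGGACTgtccatgt
Fcgr2b, bases 375 to 379: gttctcacGGACTttgtgcca
Fcgr2b, bases 426 to 430: tgctgctgGGACTcatgatct
Fcgr2b, bases 874 to 878: cacagtggGGACTactactgc
Fcgr2b, bases 1181 to 1185: ctccatctGGACTggagccaa
Fcgr3, bases 37 to 41: ccggatgcGGACTtgacgcgc
Fcgr3, bases 1231 to 1235: cacagtggGGACTactactgc
The window of Fcgr2b at bases 874 to 878 and that of Fcgr3 at bases 1231 to 1235 are the same. The wider consensus takes in the 12 words of 5 bases that begin with G or A in each of the 2 leading positions, go on with AC and end in A, C or T. For these, all 6 transcripts held matches, at 16.03 per kb for Fcer1a, 18.1 for Ms4a2, 11.6 for Fcer1g, 16.9 for Fcgr2b, 15.1 for Fcgr3 and 17.2 for Fcgr4, beside a median of 14.4 over tested protein-coding genes. These are letters in annotated transcripts, and methylation was not measured in these libraries.

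Genes that act below the receptors were examined as lists. The activating list held 24 genes of the IgE receptor cascade, of which 23 were tested and 21 did not pass an adjusted p of 0.05 or less, with a median log2 fold change of -0.0027 beside -0.0013 over all tested genes. Orai1, the pore of the calcium channel that opens when stores are emptied, stood at 33.8 CPM in Pulsed and 47.3 CPM in Mettl3-RNP libraries on average and was higher in each pair (edgeR log2 fold change 0.48, adjusted p = 0.0191), within the fold limit of 1.5. All 4 pairs went in 1 direction for 31.7% of all tested genes, which is the background here and for the lists below. The receptor-proximal kinases Lyn and Syk, named after their values were seen, had log2 fold changes of -0.23 (edgeR adjusted p = 0.128) and 0.19 (adjusted p = 0.182).

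The inhibitory list held 12 genes, of which 12 were tested and 0 passed an adjusted p of 0.05 or less, with a median log2 fold change of 0.02. Ptpn6, the phosphatase SHP-1, was measured at 452 CPM in Pulsed and 327 CPM in Mettl3-RNP libraries (log2 fold change -0.45, edgeR adjusted p = 0.0665), and Dok2, an adapter, at 19.5 and 26.3 CPM (log2 fold change 0.42, adjusted p = 0.0701). Inpp5d, the phosphatase SHIP-1 recruited by Fcgr2b and named for that role after its value was seen, had a log2 fold change of 0.16 (edgeR adjusted p = 0.228).

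**Figure D5:**
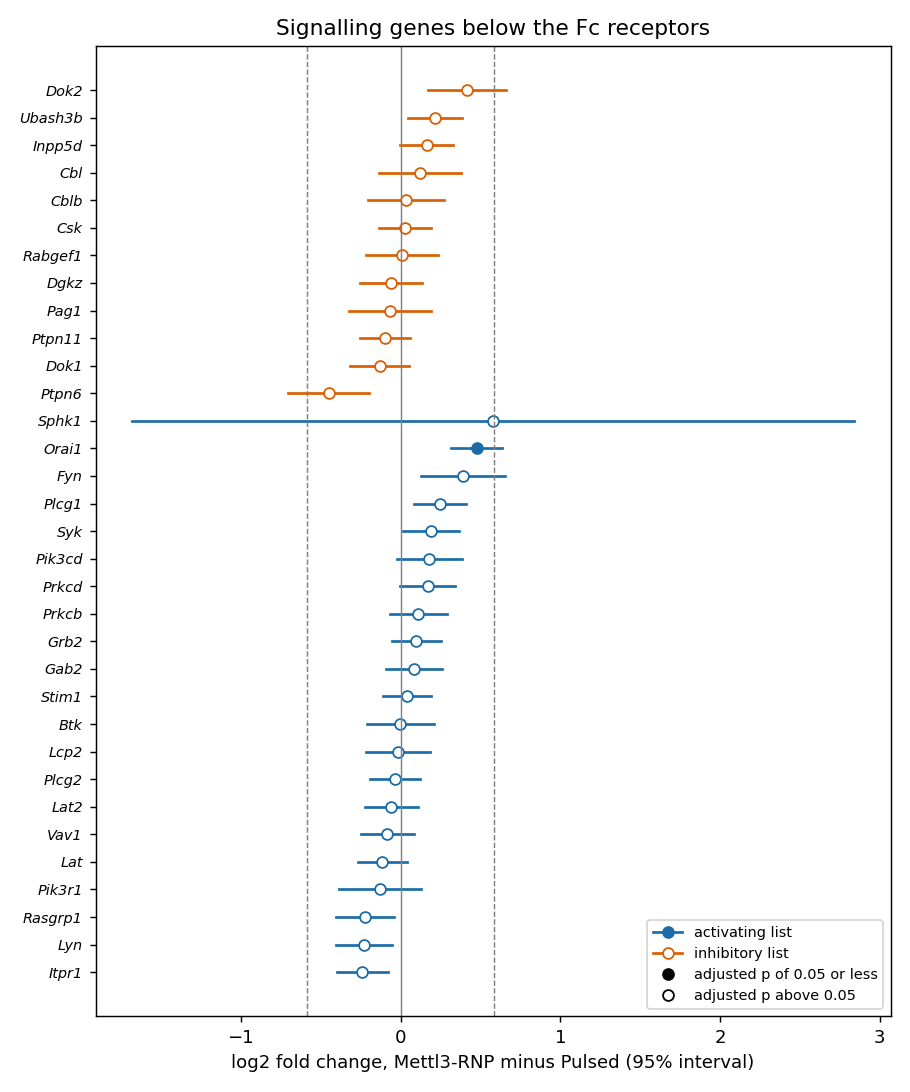
Log2 fold change (Mettl3-RNP minus Pulsed) with the 95% interval of the edgeR fit for genes of the activating list (blue) and of the inhibitory list (orange) below the Fc receptors. Filled points have an adjusted p of 0.05 or less, and dashed lines mark a fold of 1.5. Orai1 is the filled point among the genes drawn, and 2 tested genes of the activating list are not drawn.

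Relatives and partners of the receptors were mostly low. Of 13 other Fc receptor genes, 5 were tested and 0 passed, and Fcer2a, Fcamr and Fcrl6 had a count of 0 in all libraries. Fcgr1, the high-affinity IgG receptor that also uses the gamma chain, averaged 1.28 CPM in Pulsed and 1.08 CPM in Mettl3-RNP libraries (log2 fold change -0.30, edgeR adjusted p = 0.660), and Fcrla 1.07 and 1.42 CPM (log2 fold change 0.34, adjusted p = 0.607). Of 11 ITAM adapters and receptors that pair with the gamma chain, 6 were tested and 0 passed. Among them Clec4n, which encodes Dectin-2, had a log2 fold change of -0.83 (edgeR adjusted p = 0.0971). Tyrobp, the adapter DAP12 that is the closest functional counterpart of Fcer1g and was named after its values were seen, averaged 369 and 305 CPM and was lower in each pair (log2 fold change -0.29, SE 0.0779, edgeR adjusted p = 0.0799).

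Transcripts beside the receptor genes did not pass the test either. Of the 8 nearest protein-coding genes that are not themselves receptor genes of the set, 6 were tested and 0 passed. Cfap126, beside Fcgr3, averaged 1.38 and 0.799 CPM (log2 fold change -0.73, edgeR adjusted p = 0.245). Of 20 other Ms4a family genes, 3 were tested, 0 passed and 9 had a count of 0 in all libraries. Ms4a3 and Ms4a6d, on either side of Ms4a2, had log2 fold changes of -0.37 and 0.17.

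Of 12 transcription factors known for these genes or this lineage, 11 were tested and 1 passed the adjusted p limit, against 3.74% of all tested genes. The median log2 fold change of the list was 0.21. Runx1 averaged 646 and 821 CPM in Pulsed and Mettl3-RNP libraries and was higher in each pair (edgeR log2 fold change 0.34, adjusted p = 0.0448), within the fold limit. Cebpb averaged 20.2 and 33.4 CPM (log2 fold change 0.67, edgeR adjusted p = 0.0953). Gata2 and Gata1, whose motif was searched for above, had log2 fold changes of 0.13 (edgeR adjusted p = 0.457) and -0.01 (adjusted p = 0.936).

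Markers were read to check the cell type and other cells that could carry the same receptors. Over all tested genes, 3.74% passed the adjusted p limit and 31.7% had all 4 pairs in 1 direction, and the counts below stand beside these shares. Summed expression of 10 mast cell markers was 45296 to 63698 CPM in Pulsed and 41851 to 57683 CPM in Mettl3-RNP libraries, with 9 tested and a median log2 fold change of 0.13. Cpa3, a mast cell protease, fell (log2 fold change -0.37, edgeR adjusted p = 0.0328) and the other 8 did not pass. Of these, Mitf and Il1rl1, the latter named after its values were seen, were higher in 4 of 4 pairs, with log2 fold changes of 0.30 (edgeR adjusted p = 0.0709) and 0.24 (adjusted p = 0.117). Of 6 basophil markers, which belong to cells that share the IgE receptor, 2 fell and 4 did not pass, with sums of 2241 to 3319 CPM in Pulsed and 1793 to 2417 CPM in Mettl3-RNP libraries. Those that fell were Ifitm1 (log2 fold change -0.60, edgeR adjusted p = 0.0471) and Il18rap (-0.79, adjusted p = 0.0324). Cd200r3 went the other way in 4 of 4 pairs without passing (log2 fold change 0.25, edgeR adjusted p = 0.151). The sums came mostly from Ifitm1, at 2095 CPM in Pulsed and 1387 CPM in Mettl3-RNP libraries, and from Cd200r3, at 572 and 687 CPM. The basophil proteases Mcpt8 and Prss34 averaged 2.56 and 1.13 CPM in Pulsed and 1.87 and 0.701 CPM in Mettl3-RNP libraries, and with Itga2 they were lower in 4 of 4 pairs without passing (log2 fold changes of -0.42, -0.68 and -0.85). The median log2 fold change of the basophil list was -0.64. Of 12 macrophage and monocyte markers, 5 were tested, with sums of 9.82 to 17.2 CPM in Pulsed and 8.22 to 36.3 CPM in Mettl3-RNP libraries. Adgre1 fell from a low level, averaging 2.53 CPM in Pulsed and 1.17 CPM in Mettl3-RNP libraries (log2 fold change -1.13, edgeR adjusted p = 0.0435). The largest change of that list went the other way without passing, as Cd68 averaged 4.49 CPM in Pulsed and 16.7 CPM in Mettl3-RNP libraries and was higher in 3 of 4 pairs (edgeR log2 fold change 1.63, adjusted p = 0.142). Of 8 neutrophil markers, 0 were tested and S100a8, S100a9, Camp and Elane had a count of 0 in all libraries. Of 5 B cell markers 0 were tested and Ms4a1 had a count of 0 in all libraries. Of 4 eosinophil markers, 2 were tested and Epx had a count of 0 in all libraries. Siglecf fell from a low level, averaging 4.29 CPM in Pulsed and 1.56 CPM in Mettl3-RNP libraries (log2 fold change -1.498, edgeR adjusted p = 0.0199). The other tested gene of that list was also lower in 4 of 4 pairs without passing. Of 4 dendritic cell and 4 erythroid markers, 2 and 2 were tested and 0 passed. The part of the basophil, macrophage and eosinophil markers in the receptor values was not tested.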

How the data were processed

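The authors aligned poly-A RNA-seq reads to GRCm39 and deposited whole-number counts per Ensembl gene, with no normalization, in 1 table per library. Per the labels, FastQC 0.11.9, HISAT2 2.2.1 and featureCounts 2.0.1 were used. A batch correction after counting is described in the methods of the study, but the batch is not named. GENCODE vM39 (GRCm39) named 98.7% of the IDs, and unnamed IDs held at most 0.113% of a library.

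Genes were kept by filterByExpr (minimum count 10) and tested with the quasi-likelihood test of edgeR 4.0.16 in R 4.3.3, with TMM library sizes, the replicate number as a block and Benjamini-Hochberg adjustment over 14942 genes. Standard errors and 95% intervals were derived from the test statistic with 7.86 degrees of freedom. RPKM used the union of annotated exons. Log2 ratios had 2 added to each count. The fit was tested on simulated counts. Alternatives were DESeq2 1.42.0, limma-voom 3.58.1, other scalings and filters, no block, and leaving out each replicate.

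The pairing comes from the series text and the shared numbers, and reading a number as a mouse is an inference. Deviations from group means of same-numbered libraries correlated at 0.825, 0.489, 0.879 and 0.765 over 11984 genes, against at most 0.183 for different numbers. Libraries of a group differed far beyond counting noise (chi-square over degrees of freedom 52.6 or more), and each was counted as a replicate. Without molecular identifiers, intervals on counts cover counting error only.

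Receptor genes and gene lists were chosen with earlier results of these data known. Named are the receptor genes, Mettl3, list genes past the adjusted p limit of 0.05, the 2 largest changes per list at a mean of at least 1 CPM, the nearest protein-coding genes and the 3 most correlated genes. Of the genes this rule picks, 3 are not reported here, although the counts of their lists include them.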

Additional observations from a re-analysis of the deposited data

Results flagged for a closer look

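Of 54 groups of 4 values examined, 5 held a library set apart from the other 3, where chance at 1 in 20 would give 2.7. Mettl3 expression in Pulsed 3 was 11.1 CPM, below the other Pulsed libraries. The count ratio of Fcgr2b to Fcgr3 in Pulsed 1 was 0.561, above the other Pulsed libraries. The summed expression of immediate early genes in Pulsed 3 was 20436 CPM. The summed expression of neutrophil markers in Pulsed 3 was 0.397 CPM, a few counts in all. The summed expression of genes beside the receptor genes in Pulsed 2 was 104.3 CPM.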

How the results depend on the processing

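Under every alternative run, 0 of the tested receptor genes passed an adjusted p of 0.05 or less, and the smallest such value was 0.0998 (Fcgr2b, DESeq2 Wald test). Fcer1a, Fcer1g, Fcgr2b and Fcgr3 kept their direction in the 11 alternatives of each, and the order of levels in Pulsed libraries held in its 6. Ms4a2 turned to 0.020 with library size alone, 0.0034 with genes of at least 1 count in any library and 0.035 without replicate 2, all near 0. Leaving out each replicate in turn gave log2 fold changes of -1.42 to -1.22 for Mettl3, 0.06 to 0.22 for Fcer1a, -0.055 to 0.035 for Ms4a2, -0.21 to -0.14 for Fcer1g, 0.18 to 0.38 for Fcgr2b and 0.0094 to 0.26 for Fcgr3. The ratio differences ran from -0.27 to -0.08 for Ms4a2 to Fcer1a, -0.41 to -0.27 for Fcer1g to Fcer1a, -0.025 to 0.28 for Fcgr2b to Fcgr3, turning without replicate 2 (-0.025), and -0.42 to -0.22 for Fcer1g to Fcgr3.

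Without the replicate block, Mettl3 had a log2 fold change of -1.31 (edgeR adjusted p = 0.744), 0 genes passed the threshold and 579 had an unadjusted p under 0.05, and the upper bound of Fcgr2b was 0.91 on the log2 scale. Of the 5 tested receptor genes, 0 passed with or without the block. Beside 308 genes past the threshold, the DESeq2 Wald test gave 505, genes of at least 1 count in any library gave 579, a fold of at least 2 gave 111, the adjusted p alone gave 559, and leaving out replicates gave 26 (without replicate 2) to 331. Fcgr4 was left out by the filter on low counts and was fitted with genes of at least 1 count in any library, where its log2 fold change was 0.80 (SE 1.56, edgeR unadjusted p = 0.609), a size that depends on the prior count. The cause of these shifts was not tested.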
